A study of Mus musculus with 24 samples.

Results

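Glycolysis, glycogen and hypoxia response genes are taken here as 43 mouse genes chosen by name for what their products do, out of the 22911 genes that a RefSeq probe on the array measures. They comprise 17 glycolytic enzymes, 4 transporters of glucose and lactate, 4 kinases that switch glycolytic flux, 5 genes of glycogen, 4 of the pentose phosphate pathway, 3 of oxygen sensing and 6 further targets of the hypoxia response. Each gene is read by its brightest probe, and all 43 have at least 1. The study compared parental tumour cells with dormant cells derived from them, in a melanoma and in a leukemia, on 24 Agilent arrays that hold 1 sample each. B16-M is the parental melanoma line B16F1-GFP-M (3 arrays), and B16-D is the dormant line B16F1-GFP-D (4 arrays), which per the study's methods came from a mouse model of residual disease after immunotherapy. B16-D-733 (4 arrays), B16-D-735 (3) and B16-D-739 (3) are melanoma lines of a second generation of dormant cells taken from the brain, and each is a line by itself. B16-D-733 replicates 1 and 1b carry the same sample name in their titles and are both on slide 3. They may be 1 sample read again, so this line may hold fewer than 4 samples. M0-p20 (4 arrays) is taken as the parental leukemia line, which the labels do not name, and J365-p20 (3) as the dormant leukemia line, and every leukemia comparison rests on this. The melanoma cells were grown in DMEM with 10% FBS. The labels do not describe the growth of the leukemia cells, the study's text says that its cell models were amplified in vitro, and no oxygen level is stated.

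Glycolysis turns glucose into pyruvate in the cytosol, and lactate dehydrogenase then makes lactate, which leaves the cell through monocarboxylate carriers. Pyruvate dehydrogenase kinases hold pyruvate back from the mitochondria, and the PFKFB enzymes set the signal that speeds or slows phosphofructokinase. When oxygen is short, the EGLN enzymes no longer mark HIF1A for destruction, and HIF1A then switches on glucose carriers, most glycolytic enzymes, Pdk1, Bnip3, Vegfa, Adm, Ankrd37, Ndrg1 and Car9; many tumour cells keep part of this programme on in air.

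As melanoma or leukemia, the labels held against marker genes, which do not check parental against dormant lines or the lines of a model against each other. Of 10 pigment cell genes, all 10 were well above background, a flag set by the scanner software, on each melanoma array used and 4 to 5 on each leukemia array. The summed signal of these genes, relative to the array's 75th percentile, was 1573 to 1901 in the 16 melanoma arrays used and 1.51 to 6.46 in the 7 leukemia arrays. Of 10 blood cell genes, all 10 were well above background on each leukemia array (sum 122 to 169) and 2 to 4 on each of the 16 melanoma arrays used (sum 0.385 to 1.56). Markers of fibroblasts, endothelium, lymphocytes, macrophages and red blood cells are given with the other observations.

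Levels below are log2 signals relative to the array's 75th percentile, so 0 is the level that 75% of the spots do not exceed, and a level compares arrays for a gene, not genes with each other. Of the 43 members, 41 were well above background on every array used of B16-M, B16-D, B16-D-733 and B16-D-735; in B16-D-739 it was 40, because Pkm has no value on replicate 1, where its spot was an outlier. Pygl (liver glycogen phosphorylase) and Egln3 (an oxygen sensor) were well above background on no melanoma array used. In each leukemia line 38 members were well above background on every array. Eno2, Ldhb, Egln3 and Adm were above it on no leukemia array, and Pygl only on 3 of the 4 M0-p20 arrays. B16-D replicate 2 was left out of the comparisons, since 90.3% of its spots were well above background against 46.0% to 55.8% on the other 23 arrays. The labels do not state whether replicates came from separate cultures, so the p-values measure the spread between these arrays, which may be technical. Only the titles of B16-D replicates 1, 2 and 3 and B16-D-733 replicates 1, 2 and 1b carry a date. What the date marks is not stated, and its part in the results was not tested. For arrays, their number limits the precision.

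**Figure D1:**
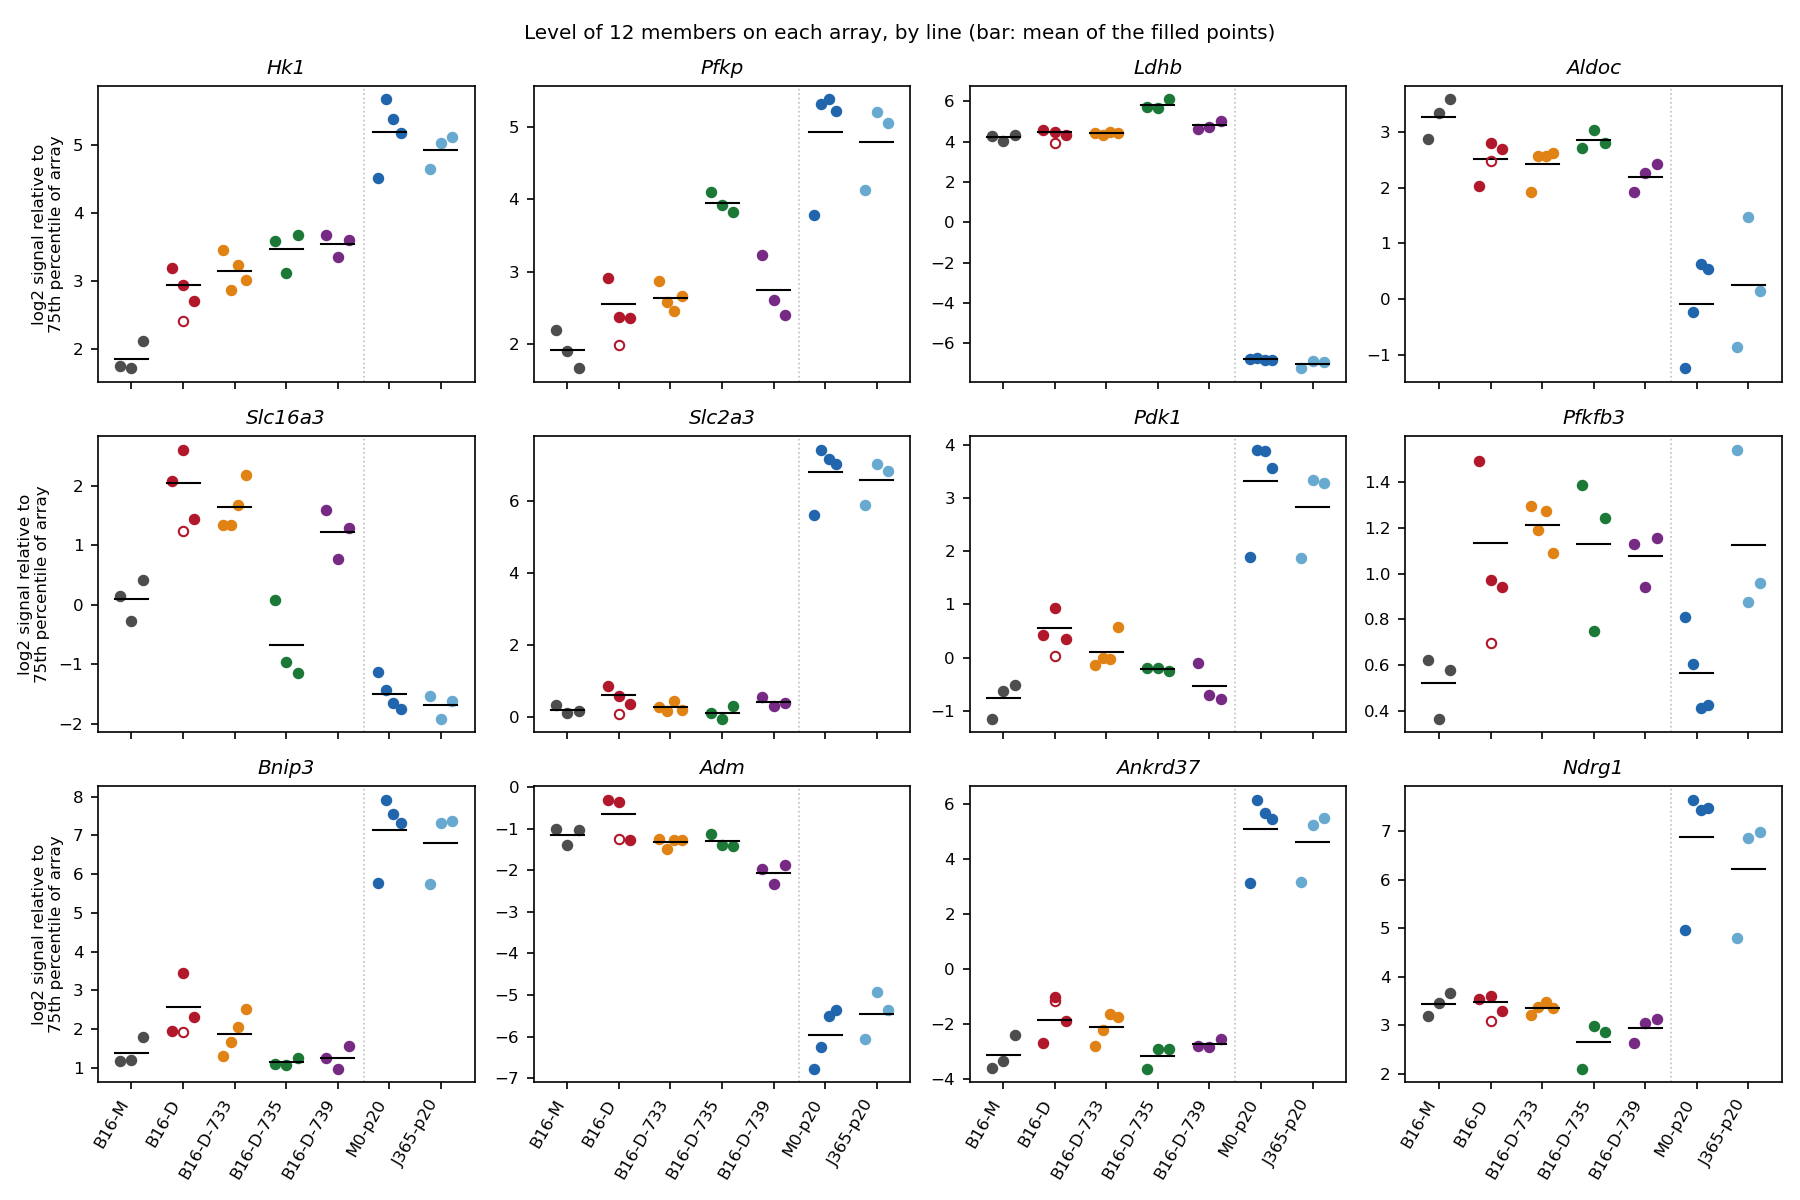
Log2 signal relative to the array's 75th percentile for 12 members, 1 point per array by line, with a bar at the mean; the open circle is B16-D replicate 2, which is not in the mean. Hk1 lies higher on every array of the 4 dormant melanoma lines than on any B16-M array; the leukemia points of Ldhb and Adm are not well above background.

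The first question is which members differ between parental and dormant melanoma cells. The 4 comparisons share the 3 B16-M arrays as controls, so they are not independent of each other. A member counts as changed where limma's adjusted p, taken over all genes tested, is under 0.05. In B16-D, 4 of the 41 members tested were higher than in B16-M and none lower, beside 7.83% of all 14133 genes tested; 17 members had an unadjusted p under 0.05, beside 3212 of all genes, and the members' median log2 fold change was 0.34 against 0.02 over all genes. The count of 4 was 7 with the slide as a block and 0 with only the arrays of the lines compared. In B16-D-733 it was 6 of 41 (5 higher, 1 lower), beside 11.0% of all genes, with a median of 0.17 against 0.04; with the number in the title as a replicate block, which pairs these lines with B16-M, 9 were past it. In B16-D-735 it was 8 of 41 (6 higher, 2 lower), beside 9.40% of all genes, with a median of 0.02 against 0.02. In B16-D-739 it was 5 of 41 (3 higher, 2 lower), beside 7.37%, with a median of 0.17 against 0.03. With the replicate block 9 were past it, but there arrays of the same number also share a slide, so the 2 cannot be told apart.

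The shift of the whole set was small and uneven across slides. With the slide as a block, the members' median was 0.33 in B16-D, 0.17 in B16-D-733, 0.02 in B16-D-735 and 0.17 in B16-D-739. Of the arrays used, each slide holds 1 of a line, or a pair of B16-D on slide 1, B16-D-733 on slide 3 and M0-p20 on slide 2. Every value within a slide, here and below, therefore rests on single arrays or such a pair and has no measure of spread. Within slides the median in B16-D was 0.34 on slide 1 and 0.08 on slide 3, against 0.00 and 0.02 over all genes; slide 2 holds both lines only with B16-D replicate 2, which was left out. In B16-D-733 it was 0.16, 0.34 and 0.06 on slides 1, 2 and 3, and in B16-D-735 0.04, 0.35 and -0.06. In B16-D-739 it was 0.17, 0.19 and 0.21, the narrowest range of the 4 lines. The counts also depended on B16-M replicate 1: without it, 1 member was past the threshold in B16-D-733 in place of 6, and 2 in B16-D-739 in place of 5. Without B16-D-733 replicate 1 or 1b, each left out alone, 4 were past it in B16-D-733 in place of 6. Without B16-D replicate 3, 7 were past it in B16-D in place of 4. Without B16-M replicate 2, 5 were past it in B16-D-735 in place of 8 and 2 in B16-D-739; without B16-D-739 replicate 0 the latter count was 2, and without replicate 1 it was 3.

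Hexokinases put the first phosphate on glucose. Hk1 read 1.74, 1.71 and 2.12 in B16-M, 3.19, 2.93 and 2.71 in B16-D, 3.45, 2.86, 3.01 and 3.24 in B16-D-733, 3.59, 3.68 and 3.12 in B16-D-735 and 3.68, 3.35 and 3.59 in B16-D-739. All dormant arrays lie above all 3 B16-M arrays. In B16-D it rose by a log2 fold change 1.09 (SE 0.19), 2.12-fold, adjusted p 0.00408 and 0.00209 to 0.0568 over the alternatives. In B16-D-733 the rise was 1.28 (adjusted p 0.000427), in B16-D-735 1.61 (adjusted p 0.00011) and in B16-D-739 1.69 (adjusted p 9.28e-05), with adjusted p over the alternatives of 0.00012 to 0.0285, 2.97e-05 to 0.0144 and 2.84e-05 to 0.00562. With the slide as a block the 4 values were 1.04, 1.33, 1.61 and 1.69, with adjusted p 0.00244, 0.00012, 4.57e-05 and 3.96e-05. Within slides they were 0.95 and 0.97 within slides 1 and 3 for B16-D, 1.12, 1.74 and 1.19 within slides 1, 2 and 3 for B16-D-733, 1.56, 1.88 and 1.38 within slides 1, 2 and 3 for B16-D-735 and 1.48, 1.64 and 1.94 within slides 1, 2 and 3 for B16-D-739. No left-out array cost Hk1 its call against B16-M. The probes of Hk1 disagree: the second, dimmer probe gave 0.32, -0.04, -0.08 and 0.14 in the same order, so the rise was seen by the brightest probe alone. The partner Hk2, the inducible hexokinase, differed by 0.38 (adjusted p 0.25) in B16-D and by 0.19 (adjusted p 0.586), 0.02 (adjusted p 0.977) and -0.04 (adjusted p 0.967) in the second generation, with overlapping lines.

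Phosphofructokinase makes the committing step of glycolysis and has 3 isoform genes. The platelet isoform Pfkp read 2.19, 1.89 and 1.65 in B16-M, 2.90, 2.38 and 2.35 in B16-D, 2.87, 2.57, 2.66 and 2.46 in B16-D-733, 4.10, 3.82 and 3.92 in B16-D-735 and 3.22, 2.60 and 2.39 in B16-D-739. B16-D-735 stands apart from every other melanoma line, and the other dormant arrays lie above B16-M by less. In B16-D-735 Pfkp rose by a log2 fold change 2.03 (SE 0.22), 4.1-fold, adjusted p 4.01e-05 and 2.52e-06 to 0.00149 over the alternatives. It was 2.17, 2.21 and 1.73 within slides 1, 2 and 3, and the adjusted p with the slide as a block was 7.27e-05. In B16-D-739 it rose by 0.83 (adjusted p 0.0349), 0.00138 to 0.147 over the alternatives, 0.0259 with the slide as a block, and 0.74, 0.71 and 1.03 within slides 1, 2 and 3, and the call was lost without B16-M replicate 1 or 2 or B16-D-739 replicate 0 or 1, each left out alone, at 0.58 to 0.90 with adjusted p 0.0613 to 0.147. In B16-D-733 it rose by 0.73 (adjusted p 0.0355), 0.00141 to 0.146 over the alternatives, 0.71 with the slide as a block (adjusted p 0.0306), and 0.80, 0.98 and 0.43 within slides 1, 2 and 3. Its call was lost without B16-M replicate 1 or 2 or B16-D-733 replicate 0, 1 or 1b, each left out alone, at 0.60 to 0.75 with adjusted p 0.0668 to 0.146. The value in B16-D, 0.63 (adjusted p 0.0974), was not past the threshold although its 3 arrays lie above B16-M. The liver isoform Pfkl differed by 0.46 (adjusted p 0.183), 0.01 (adjusted p 0.993), -0.10 (adjusted p 0.857) and 0.01 (adjusted p 0.991) in the 4 lines. The muscle isoform Pfkm differed by -0.07 (adjusted p 0.857), -0.33 (adjusted p 0.251), -0.10 (adjusted p 0.83) and 0.01 (adjusted p 0.994).

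Ldhb is the lactate dehydrogenase subunit of tissues that use lactate. It read 4.29, 4.02 and 4.34 in B16-M, 4.58, 4.48 and 4.35 in B16-D, 4.42, 4.30, 4.44 and 4.48 in B16-D-733, 5.72, 6.09 and 5.64 in B16-D-735 and 4.64, 4.71 and 5.05 in B16-D-739. The B16-D-735 arrays lie above every other melanoma array, and the B16-D-739 arrays above B16-M. In B16-D-735 Ldhb rose by a log2 fold change 1.60 (SE 0.14), 3.03-fold, adjusted p 6.17e-06 and 1.01e-06 to 0.00317 over the alternatives, and by 1.75, 1.69 and 1.36 within slides 1, 2 and 3. In B16-D-739 it rose by 0.59 (adjusted p 0.0223), 0.00277 to 0.107 over the alternatives, 0.00277 with the slide as a block, and 0.71, 0.69 and 0.36 within slides 1, 2 and 3, and the call was lost without B16-M replicate 1 or B16-D-739 replicate 2, each left out alone, at 0.46 to 0.49 with adjusted p 0.0983 to 0.107. Under quantile normalization that value was 0.49 (adjusted p 0.0637). In B16-D and B16-D-733 it was 0.25 (adjusted p 0.309) and 0.19 (adjusted p 0.422). The other subunit gene, Ldha, which is the hypoxia-induced one, differed by 0.02 (adjusted p 0.927), 0.17 (adjusted p 0.446), -0.01 (adjusted p 0.985) and 0.10 (adjusted p 0.772) in B16-D, B16-D-733, B16-D-735 and B16-D-739.

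Aldolases split the phosphorylated sugar, and Aldoc is the form known from brain. It read 2.87, 3.33 and 3.58 in B16-M, 2.03, 2.80 and 2.68 in B16-D, 1.91, 2.57, 2.61 and 2.56 in B16-D-733, 2.70, 2.80 and 3.04 in B16-D-735 and 1.92, 2.26 and 2.41 in B16-D-739. B16-D-733 and B16-D-739 lie below B16-M on every array, as do the 3 B16-D arrays, while B16-D-735 overlaps it. In B16-D-739 Aldoc fell, with a log2 fold change -1.06 (SE 0.25), 2.09-fold, adjusted p 0.0192 and 0.000425 to 0.0932 over the alternatives; the value was -1.06 with the slide as a block (adjusted p 0.0188) and -1.17, -1.07 and -0.95 within slides 1, 2 and 3. There the call was lost without B16-M replicate 1 or 2 or B16-D-739 replicate 0, each left out alone, at -1.03 to -0.90 with adjusted p 0.0739 to 0.0932. In B16-D-733 it fell by 0.84 on the log2 scale (adjusted p 0.0336, 0.000818 to 0.142 over the alternatives), -0.85 with the slide as a block (adjusted p 0.0301), and -1.02, -1.42 and -0.28 within slides 1, 2 and 3. Its call was lost without B16-M replicate 1 or 2 or B16-D-733 replicate 0 or 1, each left out alone, at -0.90 to -0.68 with adjusted p 0.0537 to 0.142. In B16-D it was -0.76 (adjusted p 0.0839). The partner Aldoa differed by 0.32 (adjusted p 0.292), 0.10 (adjusted p 0.797), 0.41 (adjusted p 0.158) and 0.26 (adjusted p 0.472) in B16-D, B16-D-733, B16-D-735 and B16-D-739.

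The remaining glycolytic changes were in B16-D-735. Gpi1, which turns glucose 6-phosphate into fructose 6-phosphate, read 6.84, 6.69 and 6.99 in B16-M and 7.45, 7.39 and 7.29 in B16-D-735, with no overlap. It rose by a log2 fold change 0.54 (SE 0.11), 1.46-fold, adjusted p 0.00819 and 0.00317 to 0.0796 over the alternatives, 0.41, 0.77 and 0.46 within slides 1, 2 and 3 and with an adjusted p of 0.00476 with the slide as a block. Tpi1, which interconverts the triose phosphates, read 6.06, 5.93 and 6.18 in B16-M and 6.65, 6.68 and 6.46 in B16-D-735, again with no overlap. It rose by a log2 fold change 0.54 (SE 0.11), 1.46-fold, adjusted p 0.00522 and 0.000736 to 0.0661 over the alternatives, 0.50, 0.72 and 0.40 within slides 1, 2 and 3 and with an adjusted p of 0.000736 with the slide as a block. Eno2, the neuronal enolase, read -0.55, -1.22 and -1.07 in B16-M, 1.72, -0.88 and -1.43 in B16-D, -0.08, -0.87, -0.73 and -0.48 in B16-D-733, 1.18, 0.97 and 0.69 in B16-D-735 and 0.07, -1.02 and -0.77 in B16-D-739. The B16-D-735 arrays lie above B16-M, and B16-D replicate 0 stands far above the other B16-D arrays. The B16-D-735 value, log2 fold change 1.89 (SE 0.60), 3.72-fold, adjusted p 0.0674 and 0.00482 to 0.189 over the alternatives, was not past the threshold. It was 2.04, 2.40 and 1.24 within slides 1, 2 and 3. The partner Eno1 differed by 0.35 (adjusted p 0.0935), 0.31 (adjusted p 0.0913), 0.34 (adjusted p 0.0902) and 0.37 (adjusted p 0.0807) in B16-D, B16-D-733, B16-D-735 and B16-D-739. Its second probe, well above background on every array used, gave 0.73, 0.57, 0.63 and 0.59. With the replicate block Eno1 was past the threshold in B16-D-733 (0.32, adjusted p 0.0366) and B16-D-739 (0.37, 0.034), and so was Gpi1 (0.31, 0.0348, and 0.32, 0.0493). Pgk1, which makes the first ATP of the pathway, read 8.44, 8.18 and 8.54 in B16-M and 8.60, 8.42 and 8.57 in B16-D and differed by 0.14 to 0.21 across the 4 lines, with none past the threshold. Over the 17 glycolytic enzymes the median was 0.32 in B16-D, 0.20 in B16-D-733, 0.32 in B16-D-735 and 0.19 in B16-D-739. In B16-D it was 0.23 with the slide as a block, and 0.20 and 0.11 within slides 1 and 3. Within slides 1, 2 and 3 it was 0.16, 0.39 and 0.11 in B16-D-733, 0.30, 0.54 and 0.14 in B16-D-735, and 0.23, 0.25 and 0.23 in B16-D-739.

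Slc16a3 carries lactate out of the cell. It read 0.15, -0.27 and 0.41 in B16-M, 2.07, 2.60 and 1.44 in B16-D, 1.34, 1.34, 2.18 and 1.67 in B16-D-733, 0.08, -1.15 and -0.96 in B16-D-735 and 1.59, 0.77 and 1.29 in B16-D-739. B16-D, B16-D-733 and B16-D-739 lie above B16-M on every array, while B16-D-735 overlaps B16-M and lies below the other dormant lines. In B16-D it rose by a log2 fold change 1.94 (SE 0.37), 3.82-fold, adjusted p 0.0065 and 0.00366 to 0.0528 over the alternatives. It was 1.87 with the slide as a block (adjusted p 0.0145) and 1.92 and 1.28 within slides 1 and 3. In B16-D-733 it rose by 1.53 (adjusted p 0.0121), 0.00744 to 0.0679 over the alternatives, 1.54 with the slide as a block (adjusted p 0.0152), and 1.26, 1.61 and 1.61 within slides 1, 2 and 3, and the call was lost without B16-M replicate 1, at 1.35 with an adjusted p of 0.0679. In B16-D-739 the value was 1.12 (adjusted p 0.0952), 0.0721 to 0.305 over the alternatives, 0.0888 with the slide as a block, and 0.87, 1.03 and 1.44 within slides 1, 2 and 3, so it was past the threshold under none of them. In B16-D-735 it was -0.78 (adjusted p 0.229). The other lactate carrier, Slc16a1, differed by 0.35 (adjusted p 0.348), 0.22 (adjusted p 0.562), -0.08 (adjusted p 0.896) and 0.22 (adjusted p 0.645). The glucose carrier Slc2a1 differed by 0.46 (adjusted p 0.184), 0.08 (adjusted p 0.886), -0.01 (adjusted p 0.989) and 0.04 (adjusted p 0.971), and Slc2a3 by 0.41 (adjusted p 0.0905), 0.07 (adjusted p 0.847), -0.09 (adjusted p 0.803) and 0.22 (adjusted p 0.427). The median of the 4 transporters in B16-D was 0.43, 0.42 with the slide as a block, and 0.57 and 0.05 within slides 1 and 3.

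Pdk1 keeps pyruvate dehydrogenase off. It read -1.15, -0.64 and -0.52 in B16-M, 0.42, 0.92 and 0.35 in B16-D, -0.14, -0.00, 0.57 and -0.04 in B16-D-733, -0.21, -0.26 and -0.20 in B16-D-735 and -0.10, -0.71 and -0.78 in B16-D-739. B16-D, B16-D-733 and B16-D-735 lie above B16-M, and B16-D-739 overlaps it. In B16-D it rose by a log2 fold change 1.33 (SE 0.24), 2.52-fold, adjusted p 0.004 and 0.00241 to 0.0612 over the alternatives. It was 1.31 with the slide as a block (adjusted p 0.00919) and 1.19 and 1.50 within slides 1 and 3. The probes disagree: the second gave 1.26 and the third -0.22, and the mean over all probes was 0.81 with an adjusted p of 0.0612. In B16-D-733 it rose by 0.87 (adjusted p 0.0227), 0.0169 to 0.155 over the alternatives, 0.86 with the slide as a block (adjusted p 0.0279), and 0.48, 0.49 and 1.44 within slides 1, 2 and 3. Its call was lost without B16-M replicate 0 or 1 or B16-D-733 replicate 1b, each left out alone, at 0.67 to 0.93 with adjusted p 0.0532 to 0.0895. In B16-D-735 and B16-D-739 it was 0.55 (adjusted p 0.181) and 0.24 (adjusted p 0.68). Its partner Pdk3 differed by 0.13 to 0.20 across the 4 lines, none past the threshold.

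Pfkfb3 makes the activator of phosphofructokinase. It read 0.62, 0.37 and 0.58 in B16-M, 1.49, 0.97 and 0.94 in B16-D, 1.29, 1.19, 1.09 and 1.27 in B16-D-733, 1.38, 1.24 and 0.75 in B16-D-735 and 1.13, 0.94 and 1.15 in B16-D-739. All dormant arrays lie above all B16-M arrays, by small steps. In B16-D it rose by a log2 fold change 0.61 (SE 0.17), 1.53-fold, adjusted p 0.0464 and 0.0309 to 0.231 over the alternatives. It was 0.58 with the slide as a block (adjusted p 0.0492) and 0.65 and 0.32 within slides 1 and 3. There the call was lost without B16-M replicate 0, 1 or 2 or B16-D replicate 0 or 1, each left out alone, at 0.43 to 0.69 with adjusted p 0.0648 to 0.177. In B16-D-733 it rose by 0.69 (adjusted p 0.0144), 0.00688 to 0.148 over the alternatives, 0.71 with the slide as a block (adjusted p 0.00952), and 0.69, 0.93 and 0.52 within slides 1, 2 and 3, and the call was lost without B16-M replicate 1, at 0.61 with an adjusted p of 0.0765. In B16-D-735 it rose by 0.60 (adjusted p 0.0434), 0.0101 to 0.409 over the alternatives, 0.0285 with the slide as a block, and 0.66, 1.02 and 0.13 within slides 1, 2 and 3. Its call was lost without B16-M replicate 0, 1 or 2 or B16-D-735 replicate 0 or 1, each left out alone, at 0.47 to 0.65 with adjusted p 0.0663 to 0.166. In B16-D-739 the value was 0.55 (adjusted p 0.0748), not past the threshold, and 0.0388 with the replicate block. The second probe of Pfkfb3 gave 0.47, 0.50, 0.19 and 0.52 in B16-D, B16-D-733, B16-D-735 and B16-D-739. Pfkfb4, a related enzyme, read -1.32, -1.33 and -0.76 in B16-M and -1.83, -1.80 and -2.01 in B16-D-735, with no overlap. In B16-D-735 it fell, with a log2 fold change -0.75 (SE 0.18), adjusted p 0.0186 and 0.00376 to 0.08 over the alternatives, and -1.04, -0.50 and -0.69 within slides 1, 2 and 3, at an adjusted p of 0.00376 with the slide as a block, and the call was lost without B16-M replicate 2 or B16-D-735 replicate 2, each left out alone, at -0.68 to -0.56 with adjusted p 0.0678 to 0.0761.

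For glycogen and the pentose phosphate pathway limma put 0 of 4 genes each past the threshold in every dormant line, beside 7.37% to 11.0% of all genes, so 0 of 4 does not set them apart. Their medians in B16-D were 0.33 and 0.07, 0.28 and 0.06 with the slide as a block; within slides 1 and 3 that of glycogen was 0.40 and -0.01, and that of the pentose phosphate pathway 0.06 and 0.08. Unadjusted p-values under 0.05 numbered 2 for glycogen in B16-D (Gys1 and Pygb), 1 in B16-D-733 (Pygb), 0 in B16-D-735 and 1 in B16-D-739 (Pygb); for the pentose phosphate pathway the only one was Pgd in B16-D-735, so 1. Of all 14133 genes it was 3212, 3443, 3278 and 2812 in B16-D, B16-D-733, B16-D-735 and B16-D-739. Pygb, brain glycogen phosphorylase, read 0.51, 0.28 and 0.52 in B16-M, 0.97, 0.99 and 0.74 in B16-D, 0.81, 0.62, 0.84 and 1.02 in B16-D-733, 0.65, 0.97 and 0.53 in B16-D-735 and 0.90, 0.77 and 1.10 in B16-D-739. Every dormant array used lies above every B16-M array, with differences of 0.46 (adjusted p 0.0649), 0.38 (adjusted p 0.0831), 0.28 (adjusted p 0.261) and 0.49 (adjusted p 0.0559). Gyg, which primes glycogen, differed by 0.06 (adjusted p 0.9) in B16-D. Taldo1, of the pentose phosphate pathway, differed by 0.01 (adjusted p 0.989).

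For oxygen sensing, Hif1a, the oxygen-regulated subunit of HIF1, differed by -0.12 (adjusted p 0.671), -0.12 (adjusted p 0.697), -0.14 (adjusted p 0.635) and -0.01 (adjusted p 0.994) in B16-D, B16-D-733, B16-D-735 and B16-D-739; its protein was not measured. Egln1, which marks HIF1A for destruction, differed by 0.22 (adjusted p 0.221), 0.16 (adjusted p 0.341), 0.07 (adjusted p 0.779) and -0.02 (adjusted p 0.972). Among the 6 further hypoxia targets, limma put 0 past the threshold in B16-D, beside 7.83% of all genes, with 3 at an unadjusted p under 0.05 (Adm, Bnip3 and Ankrd37), beside 3212 of the 14133 genes tested. Their median there was 0.42, 0.38 with the slide as a block, 0.63 within slide 1 and -0.06 within slide 3.

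Bnip3, which acts in the removal of mitochondria, read 1.16, 1.20 and 1.79 in B16-M, 1.95, 3.45 and 2.30 in B16-D, 1.29, 1.66, 2.51 and 2.06 in B16-D-733, 1.09, 1.26 and 1.07 in B16-D-735 and 1.26, 0.97 and 1.56 in B16-D-739. The B16-D arrays lie above B16-M, with replicate 1 the highest. The B16-D value, log2 fold change 1.18 (SE 0.36), 2.26-fold, adjusted p 0.0657 and 0.0282 to 0.263 over the alternatives, was not past the threshold. It was 0.99 with the slide as a block (adjusted p 0.092) and 0.90 and 1.14 within slides 1 and 3, and without B16-D replicate 0 it was 1.49 with an adjusted p of 0.0282. Ankrd37, a direct HIF1 target, read -3.57, -3.34 and -2.39 in B16-M, -2.66, -1.01 and -1.87 in B16-D, -2.77, -2.22, -1.72 and -1.64 in B16-D-733, -3.61, -2.89 and -2.90 in B16-D-735 and -2.80, -2.82 and -2.53 in B16-D-739. B16-D replicate 0 lies within the range of B16-M. Its values of 1.25 (adjusted p 0.087) in B16-D and 1.01 (adjusted p 0.122) in B16-D-733 were not past the threshold, although the latter had an adjusted p of 0.0356 with the replicate block.

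Ndrg1, a stress-induced gene often used to mark hypoxia, read 3.19, 3.46 and 3.67 in B16-M, 3.54, 3.60 and 3.29 in B16-D, 3.21, 3.37, 3.36 and 3.47 in B16-D-733, 2.10, 2.86 and 2.99 in B16-D-735 and 2.64, 3.04 and 3.14 in B16-D-739. The B16-D-735 arrays lie below B16-M. In B16-D-735 it fell, with a log2 fold change -0.79 (SE 0.21), adjusted p 0.0324 and 0.00251 to 0.165 over the alternatives, and -0.81, -1.35 and -0.21 within slides 1, 2 and 3, at an adjusted p of 0.0139 with the slide as a block. Its call was lost without B16-M replicate 1 or 2 or B16-D-735 replicate 0, each left out alone, at -0.78 to -0.52 with adjusted p 0.0934 to 0.117. In B16-D-739 Ndrg1 was at -0.50 (adjusted p 0.202), and 0.0327 with the replicate block. Adm, the peptide hormone adrenomedullin, read -1.02, -1.40 and -1.02 in B16-M, -0.31, -0.36 and -1.27 in B16-D, -1.26, -1.49, -1.28 and -1.28 in B16-D-733, -1.12, -1.41 and -1.39 in B16-D-735 and -1.97, -2.33 and -1.86 in B16-D-739. The B16-D-739 arrays lie below every other melanoma array. In B16-D-739 it fell, with a log2 fold change -0.91 (SE 0.22), adjusted p 0.0248 and 0.000627 to 0.104 over the alternatives, and -0.84, -0.92 and -0.95 within slides 1, 2 and 3, at an adjusted p of 0.0151 with the slide as a block, and the call was lost without B16-M replicate 0 or 2 or B16-D-739 replicate 0 or 1, each left out alone, at -0.95 to -0.77 with adjusted p 0.0634 to 0.104. In these bulk samples fewer cells with a transcript and less of it per cell cannot be told apart.

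**Figure D2:**
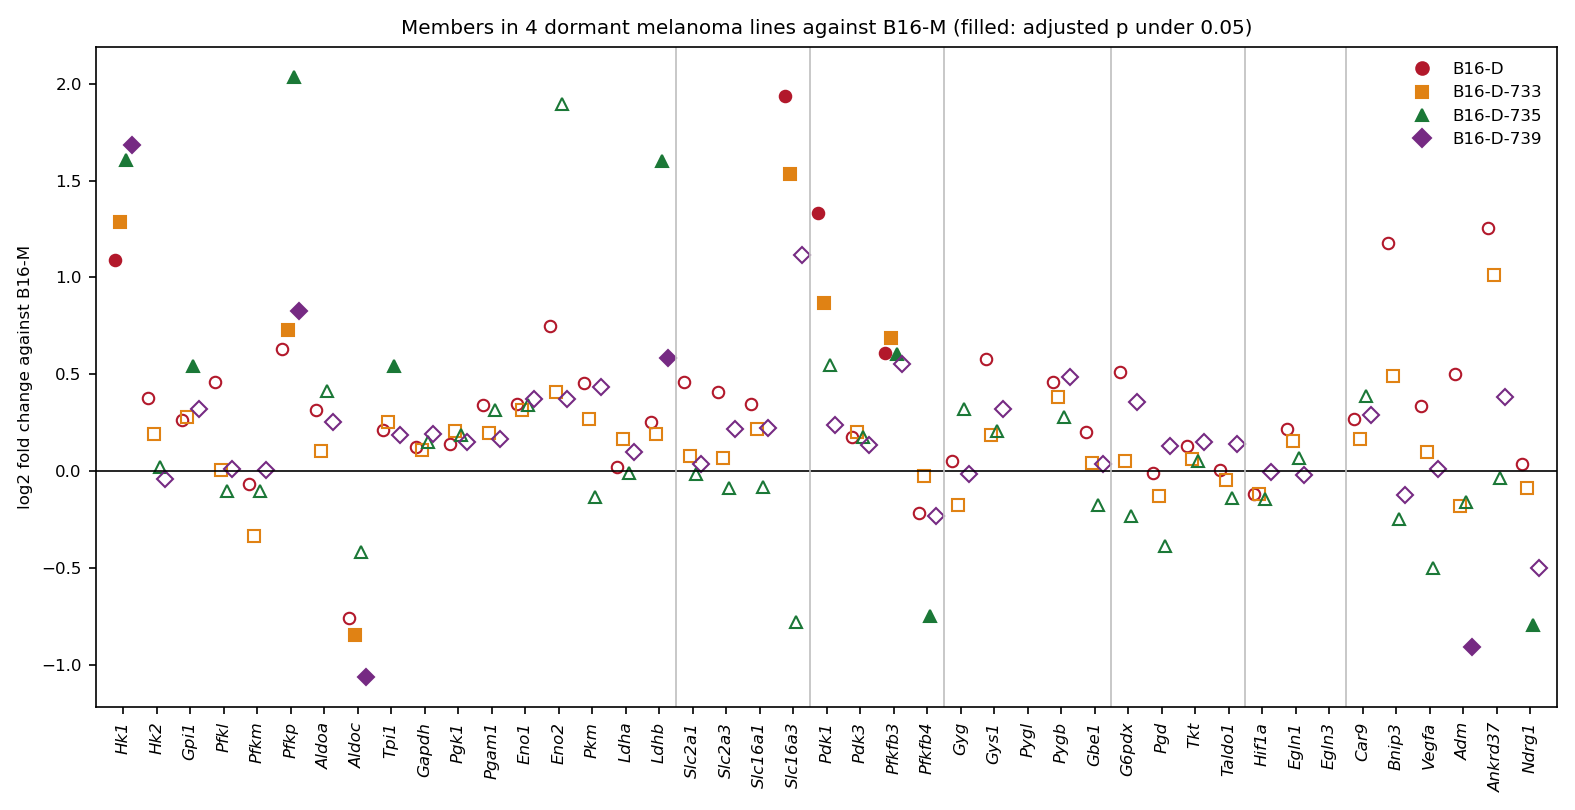
Log2 fold change of each member in B16-D, B16-D-733, B16-D-735 and B16-D-739 against B16-M, with roles parted by vertical lines; filled symbols have an adjusted p under 0.05. Hk1 is filled in all 4 lines, while Pfkp, Ldhb and Slc16a3 differ between them; Pygl and Egln3 were not tested.

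The second question is how the brain-derived lines differ from the first dormant line. These 3 comparisons share the 3 B16-D arrays. In B16-D-733 limma put 0 of 41 members past the threshold, beside 0.969% of all genes, with 3 at an unadjusted p under 0.05 (Pfkl, Slc2a3 and Adm), beside 866 of all genes, and a median of -0.12 against 0.00, -0.09 with the slide as a block, and -0.12 and -0.03 within slides 1 and 3; without B16-D replicate 3 the count was 1. In B16-D-735 it was 7 of 41 (2 higher, 5 lower), beside 14.1%, with a median of -0.14 against 0.02, -0.11 with the slide as a block, and -0.13 and -0.18 within slides 1 and 3. In B16-D-739 it was 1 of 41, lower, beside 0.630%, with a median of -0.06 against 0.00, -0.05 with the slide as a block, and -0.11 and 0.14 within slides 1 and 3. The count in B16-D-735 was 11 without B16-D replicate 0, 3 without B16-D replicate 1 and 3 without B16-D-735 replicate 0; the count in B16-D-739 was 2 without B16-D-739 replicate 0 and 0 without replicate 1.

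Pfkp and Ldhb were higher in B16-D-735 than in B16-D. Pfkp rose by a log2 fold change 1.40 (SE 0.22), 2.65-fold, adjusted p 0.000754 and 0.000106 to 0.0168 over the alternatives. It was 1.34 with the slide as a block (adjusted p 0.00161) and 1.18 and 1.57 within slides 1 and 3. Ldhb rose by a log2 fold change 1.35 (SE 0.14), 2.54-fold, adjusted p 2.87e-05 and 4.11e-06 to 0.0105 over the alternatives. It was 1.43 with the slide as a block (adjusted p 4.11e-06) and 1.56 and 1.29 within slides 1 and 3. For both, all 3 B16-D-735 arrays lie above all 3 B16-D arrays. Slc16a3 went the other way, with all B16-D-735 arrays below all B16-D arrays. It fell, with a log2 fold change -2.71 (SE 0.37), 6.55-fold, adjusted p 0.000317 and 7.95e-05 to 0.0256 over the alternatives. It was -2.65 with the slide as a block (adjusted p 0.00108) and -3.49 and -2.40 within slides 1 and 3.

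The 4 further members lower in B16-D-735 than in B16-D had lines that do not overlap, but each call depended on single arrays. Bnip3 was at log2 fold change -1.42 (SE 0.36), adjusted p 0.0184 and 0.00726 to 0.114 over the alternatives. It was -1.24 with the slide as a block (adjusted p 0.0275) and -1.43 and -1.23 within slides 1 and 3, and the call was lost without B16-D replicate 1 or B16-D-735 replicate 0 or 2, each left out alone, at -1.40 to -0.98 with adjusted p 0.0523 to 0.0704. Ndrg1 was at log2 fold change -0.83 (SE 0.21), adjusted p 0.0186 and 0.00127 to 0.153 over the alternatives. It was -0.72 with the slide as a block (adjusted p 0.0222) and -0.71 and -0.31 within slides 1 and 3, and the call was lost without B16-D replicate 1 or B16-D-735 replicate 0, each left out alone, at -0.77 to -0.56 with adjusted p 0.0594 to 0.0701. Pdk1 was at log2 fold change -0.79 (SE 0.24), adjusted p 0.0413 and 0.0326 to 0.165 over the alternatives. It was -0.76 with the slide as a block (adjusted p 0.0606) and -0.93 and -0.55 within slides 1 and 3, and the call was lost without B16-D replicate 1 or B16-D-735 replicate 0, 1 or 2, each left out alone, at -0.80 to -0.61 with adjusted p 0.0889 to 0.165. Slc2a3, a glucose carrier of high affinity, read 0.31, 0.10 and 0.16 in B16-M, 0.85, 0.59 and 0.36 in B16-D, 0.26, 0.16, 0.17 and 0.44 in B16-D-733, 0.09, 0.28 and -0.06 in B16-D-735 and 0.56, 0.29 and 0.38 in B16-D-739. All B16-D-735 arrays lie below all B16-D arrays used. It was at log2 fold change -0.49 (SE 0.14), adjusted p 0.0283 and 0.0144 to 0.2 over the alternatives. It was -0.44 with the slide as a block (adjusted p 0.0337) and -0.44 and -0.42 within slides 1 and 3, and the call was lost without B16-D replicate 0 or 1 or B16-D-735 replicate 0 or 2, each left out alone, at -0.50 to -0.37 with adjusted p 0.0729 to 0.124. Ankrd37 was not past the threshold at log2 fold change -1.29 (SE 0.42), adjusted p 0.057 and 0.0131 to 0.225 over the alternatives, although the lines do not overlap; without B16-D replicate 0 it was -1.70 with an adjusted p of 0.0143. The median of the 6 hypoxia targets was -0.83, -0.77 with the slide as a block, and -1.07 and -0.37 within slides 1 and 3.

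In B16-D-739 the member past the threshold was Adm. It fell, with a log2 fold change -1.41 (SE 0.22), adjusted p 0.00815 and 0.00017 to 0.373 over the alternatives, and all B16-D-739 arrays lie below all B16-D arrays. It was -1.33 with the slide as a block (adjusted p 0.0167) and -1.53 and -0.71 within slides 1 and 3, and the call was lost without B16-D-739 replicate 1, at -1.27 with an adjusted p of 0.0591. Pdk1, at log2 fold change -1.10 (SE 0.24), adjusted p 0.0613 and 0.0327 to 0.432 over the alternatives, was not past it although the lines do not overlap. It was -1.07 with the slide as a block (adjusted p 0.124) and -1.45 and -0.45 within slides 1 and 3, and without B16-D-739 replicate 0 it was -1.31 with an adjusted p of 0.0327. Bnip3, at log2 fold change -1.30 (SE 0.36), adjusted p 0.203 and 0.0868 to 0.759 over the alternatives, was not past it either, with lines that do not overlap. The median of the 6 hypoxia targets was -0.70, -0.53 with the slide as a block, and -0.76 and -0.68 within slides 1 and 3.

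The third question is which members differ between parental and dormant leukemia cells. In J365-p20 limma put 0 of 39 members past the threshold, beside 1.94% of the 13207 genes tested, with 2 at an unadjusted p under 0.05 (Pfkfb3 and Pygl), beside 1320 of all genes. The members' median was -0.18 against 0.04 over all genes, -0.25 with the slide as a block, and -0.38, -0.38 and -0.14 within slides 1, 2 and 3. Pygl, liver glycogen phosphorylase, read -4.57, -2.24, -2.17 and -2.11 in M0-p20 and -7.31, -5.56 and -5.70 in J365-p20. It was well above background on M0-p20 replicates 1, 2 and 3 and on no J365-p20 array, so the size of the difference is not known. It entered the test only through the line where it is high, so its p-value is not given as support. Pfkfb3 read 0.81, 0.61, 0.41 and 0.43 in M0-p20 and 1.54, 0.88 and 0.96 in J365-p20. Its arrays do not overlap, and the difference of 0.56 (adjusted p 0.36) was not past the threshold. Hk1, Slc16a3 and Pdk1, which rose in B16-D, differed by -0.26 (adjusted p 0.852), -0.20 (adjusted p 0.838) and -0.48 (adjusted p 0.87). Hif1a differed by 0.24 (adjusted p 0.791) and Egln1 by -0.32 (adjusted p 0.919).

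The members' median differed more between arrays of a leukemia line than between the lines. M0-p20 replicate 0 was the lowest of its line in 29 of the 38 members well above background there, against 35.4% of all genes, and its members' median minus the mean of the other arrays was -0.91 against -0.04 over all genes. J365-p20 replicate 0 was the lowest in 32 of 38, against 35.5% of all genes, with a median of -0.71 against 0.01. Both arrays are on slide 2 and carry number 0 in their titles. On that same slide M0-p20 replicate 0 lay below replicate 3 in 29 of 38 members, by a median of -0.71, against 0.02 over 12702 genes. Over 5 hypoxia targets both arrays were the lowest in all 5, with medians of -1.83 and -1.59. Over 15 glycolytic enzymes they were the lowest in 14 and 15, with medians of -0.93 and -0.89.

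The largest steps were those of Ankrd37 and Ndrg1. Ankrd37 read 3.12, 6.16, 5.68 and 5.47 in M0-p20 and 3.18, 5.25 and 5.49 in J365-p20. Ndrg1 read 4.97, 7.65, 7.43 and 7.47 in M0-p20 and 4.81, 6.86 and 6.99 in J365-p20. Bnip3 read 5.77, 7.92, 7.54 and 7.33 in M0-p20 and 5.75, 7.31 and 7.37 in J365-p20. In each of these genes the replicate 0 array, given first, is the low one in both lines. Gbe1, which branches glycogen, was -2.40 below the mean of the other arrays on M0-p20 replicate 0, Gys1 -1.90, Pdk1 -1.90, Slc2a1 -1.90, Egln1 -1.73 and Slc2a3 -1.60. On J365-p20 replicate 0, Gys1 was at -1.74, Aldoc at -1.67, Egln1 at -1.56, Slc2a1 at -1.51, Pfkl at -1.45 and Pdk1 at -1.44. Some members went the other way. On M0-p20 replicate 0 Slc16a1 was higher by 0.69, Slc16a3 by 0.49, Pfkfb3 by 0.33, Pgd by 0.25 and Hif1a by 0.21; on J365-p20 replicate 0 the highest value of the line was found for 6 members, G6pdx, Slc16a3, Pgd, Slc16a1, Hif1a and Pfkfb3. Of 5 red blood cell genes, the summed signal was also lower on these arrays, 9.28 against 23.4 to 37.2 in M0-p20 and 3.17 against 16.2 to 16.3 in J365-p20; its part in the result was not tested.

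**Figure D3:**
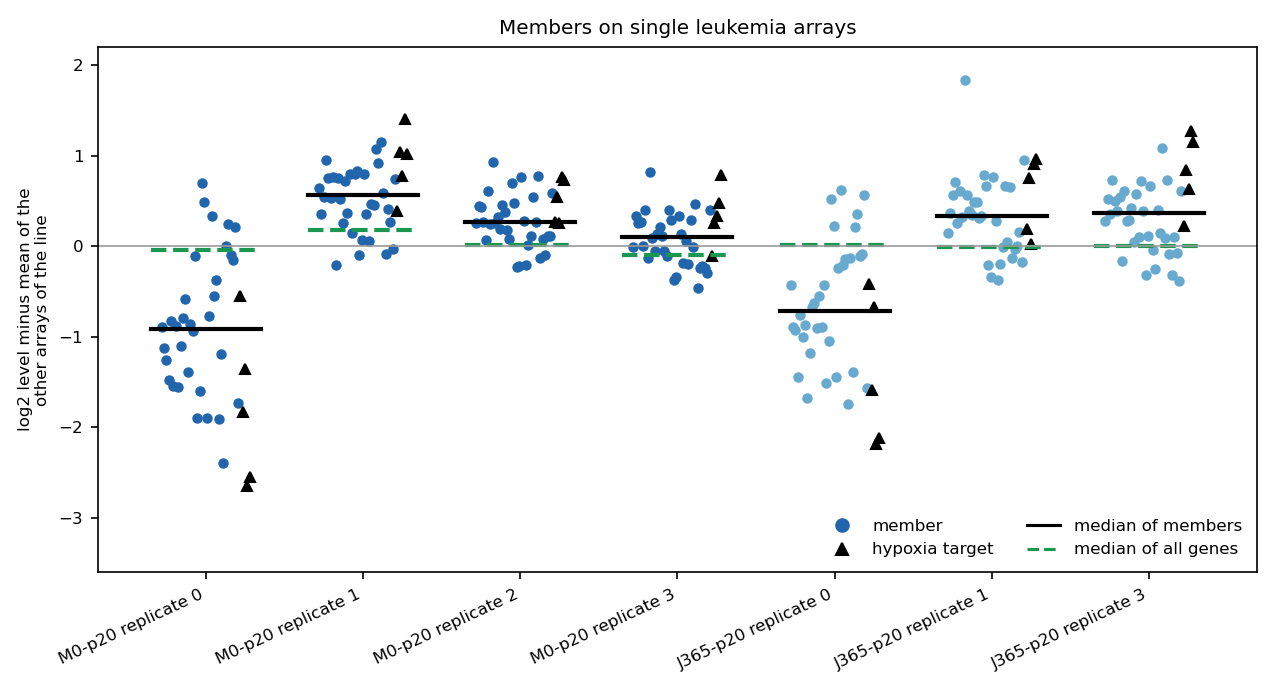
Log2 level of each member minus the mean of the other arrays of its line, 1 column per leukemia array; black triangles are hypoxia targets, black lines the members' median and dashed green lines the median of all genes. On both arrays with number 0 the members' median lies well under that of all genes, with the hypoxia targets among the lowest points.

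The members' median SD was 0.21 in B16-M, 0.26 in B16-D, 0.19 in B16-D-733, 0.22 in B16-D-735 and 0.21 in B16-D-739, against 0.52 in M0-p20 and 0.44 in J365-p20. The 5 most variable members were Ankrd37, Aldoc, Bnip3, Eno2 and Slc16a3 in B16-M (SD 0.34 to 0.62), and Eno2, Ankrd37, Bnip3, Gbe1 and Vegfa in B16-D (0.65 to 1.68). They were Bnip3, Ankrd37, Slc16a3, Eno2 and Aldoc in B16-D-733 (0.34 to 0.52), and Slc16a3, Ndrg1, Ankrd37, Car9 and Pfkm in B16-D-735 (0.35 to 0.66). They were Eno2, Vegfa, Pfkp, Slc16a3 and Pdk1 in B16-D-739 (0.38 to 0.57), Ankrd37, Ndrg1, Gbe1, Gys1 and Pdk1 in M0-p20 (0.96 to 1.35), and Ankrd37, Ndrg1, Aldoc, Gys1 and Bnip3 in J365-p20 (0.92 to 1.27).

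Whether the dormancy change differed between the models was tested as the B16-D change minus the J365-p20 change, so the brain-derived lines are not part of it. Of 38 members, 2 were past the threshold, both higher in melanoma, beside 2.77% of the 12162 genes tested; 5 had an unadjusted p under 0.05, beside 1367 of all genes, and the median was 0.50 against -0.03. Slc16a3 differed by 2.13 (SE 0.45, adjusted p 0.0109, 0.00398 to 0.0399 over the alternatives), and by 2.10 with the slide as a block (adjusted p 0.0127). It rose on every B16-D array against every B16-M array, and the leukemia lines overlap. Hk1 differed by 1.35 (SE 0.33, adjusted p 0.0304, 0.002 to 0.128 over the alternatives), and by 1.26 with the slide as a block (adjusted p 0.0145). It too rose on every B16-D array, with overlapping leukemia lines. Its call was lost without B16-M replicate 0 or 1, B16-D replicate 0 or 1, M0-p20 replicate 1, 2 or 3, or J365-p20 replicate 0 or 1, each left out alone, at 1.19 to 1.39 with adjusted p 0.0522 to 0.0969. With those arrays left out the count was 1, and without M0-p20 replicate 0 it was 3. Pdk1 (1.82, adjusted p 0.147), Bnip3 (1.50, 0.401), Vegfa (1.13, 0.379) and Ankrd37 (1.72, 0.527) were not past it.

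The parental lines differ in tissue of origin, so the comparison of B16-M with M0-p20 describes the background of each model. Of 42 members, 37 were past the threshold, 9 higher in B16-M and 28 higher in M0-p20, beside 66.3% of the 15285 genes tested. Of the 37, Ldhb, Eno2, Adm and Pygl are well above background in 1 of the 2 lines only. They entered the test only through lines where they are high. Their calls are counted in the 37 but are not given as support, and their p-values are not given. The members' median was -0.97 against -0.04, -1.04 with the slide as a block, and -1.36, -0.79 and -1.18 within slides 1, 2 and 3. By role, 3 glycolytic enzymes were higher in B16-M and 12 lower (median -0.88), 1 transporter higher and 2 lower (-1.85), 3 switches lower (-2.77), 1 glycogen gene higher and 3 lower (-1.31), 2 pentose phosphate genes higher and 2 lower (0.12), 1 oxygen sensing gene higher and 1 lower (-0.90), and 1 hypoxia target higher and 5 lower. The median of the hypoxia targets was -3.45, -3.53 with the slide as a block, and -4.05, -2.99 and -3.83 within slides 1, 2 and 3.

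Ldhb read 4.29, 4.02 and 4.34 in B16-M and -6.76, -6.74, -6.83 and -6.85 in M0-p20, and none of the M0-p20 values is well above background. Against the lowest signal that is well above background on those arrays it was at least 472-fold higher in B16-M. Eno2 and Adm, likewise above background on every B16-M array and on no M0-p20 array, were at least 13.2-fold and at least 11.4-fold higher in B16-M. Aldoc was higher in B16-M by a log2 fold change 3.34 (SE 0.45), 10.1-fold, adjusted p 1.78e-06 and 1.31e-10 to 0.000251 over the alternatives, and its second probe gave 4.94. Slc2a3 read 0.31, 0.10 and 0.16 in B16-M and 5.61, 7.43, 7.17 and 7.03 in M0-p20. The lines lie far apart, by a log2 fold change -6.62 (SE 0.32), adjusted p 3.31e-13 and 2.49e-17 to 1.54e-06 over the alternatives. Ankrd37, Bnip3 and Pdk1 were lower in B16-M by log2 values of -8.21 (adjusted p 5.08e-10), -5.75 (adjusted p 1.68e-09) and -4.09 (adjusted p 3.41e-08), with highest adjusted p over the alternatives of 1.31e-05, 1.24e-05 and 0.000119. Slc2a1 was at -3.58 (adjusted p 1.7e-07), Vegfa at -3.46 (adjusted p 3.23e-08), Ndrg1 at -3.44 (adjusted p 1.05e-05) and Hk1 at -3.33 (adjusted p 9.74e-11), all lower in B16-M with no overlap. The second probe of Hk1 gave 0.37, well above background on 4 of the 7 arrays, and the third of Pdk1 -0.28, so those probes disagree with the brightest.

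The other members lower in B16-M were Gys1, Pfkfb4, Pfkl, Pfkp, Egln1, Pdk3, Hk2, Car9, Gpi1, Gbe1, Pgam1, Aldoa, Pkm, Pfkm, Tpi1, Pgk1, Ldha, Taldo1 and Tkt, with log2 values from -3.30 to -0.38, of which Pkm, Tpi1, Pgk1, Ldha, Taldo1 and Tkt were not past the threshold under quantile normalization. Pygl was lower too, by a size that is not known, since it is well above background on 3 of 4 M0-p20 arrays and on no B16-M array, and without any 1 of those 3 it was not tested. The second probe of Ldha gave -1.37. Those higher in B16-M were Gyg, Pgd, Slc16a3, Hif1a and G6pdx, from 0.63 to 2.29. Not past the threshold were Gapdh (-0.21, adjusted p 0.351, with -0.03 to 0.39 by its other 5 probes), Eno1 (-0.35, 0.112), Slc16a1 (-0.11, 0.661), Pfkfb3 (-0.04, 0.857) and Pygb (0.17, 0.56). The abundant enzymes depend on the scaling: under quantile normalization Gapdh was 0.33 (adjusted p 0.00626), Eno1 0.18, Ldha 0.12 (0.38), Pgk1 -0.04 (0.773), Pkm -0.45 (0.0653), Tpi1 -0.42 (0.0681), Taldo1 -0.09 (0.582) and Tkt -0.25 (0.101), and the members' median -0.57. Calls of 5 members, with Tpi1, Tkt and Taldo1 again among them, depended on single arrays. For Tpi1 the call was lost without B16-M replicate 1 or M0-p20 replicate 1, each left out alone, at -0.68 to -0.55 with adjusted p 0.0659 to 0.0751; for Gbe1 the call was lost without B16-M replicate 1 or M0-p20 replicate 1, 2 or 3, each left out alone, at -1.19 to -1.02 with adjusted p 0.0554 to 0.0771. For G6pdx the call was lost without B16-M replicate 2 or M0-p20 replicate 2 or 3, each left out alone, at 0.50 to 0.60 with adjusted p 0.0628 to 0.131; for Tkt the call was lost without B16-M replicate 1 or M0-p20 replicate 1, each left out alone, at -0.29 to -0.28 with adjusted p 0.0526 to 0.0871. For Taldo1 the call was lost without B16-M replicate 0, 1 or 2 or M0-p20 replicate 1 or 2, each left out alone, at -0.40 to -0.32 with adjusted p 0.0833 to 0.114.

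Promoters were read for what the members share in sequence, because hypoxia targets moved together across the leukemia arrays. RefSeq promoter sequences (build GRCm38.p6, 300 bases each across the start of transcription) exist for 41 of the 43 members, with 56 sequences, and for 27025 genes in all. The core of the HIF1 element was searched on both strands in its form with A first, ACGTG, and in its form with G first, which is GCGTG. The longer motif CACGTG was searched as well, and it holds the form with A first on each strand. ACGTG was in the promoter of 26 of 41 members (63.4%) against 21.8% of all genes, GCGTG in 28 (68.3%) against 35.2%, and CACGTG in 7 (17.1%) against 8.09%. ACGTG or GCGTG was in 36 of 41 (87.8%) against 46.7%, in 14 of 17 glycolytic enzymes (82.4%) and in 5 of 5 hypoxia targets with an entry. A match describes letters and not a bound site. The members were chosen partly as genes of the hypoxia response, so a higher share of this core is no independent finding. The other genes were not matched for base composition or signal. A gene counted where any of its entries matched, and all genes have 32851 sequences. The 4 shown belong to members named above for their changes between dormant and parental melanoma or on single leukemia arrays. Ankrd37 lies at chr8:45999801-46000100 (minus strand), Bnip3 at chr7:138909457-138909756 (minus strand), Pdk1, 1 of 2 entries, at chr2:71872974-71873273 (plus strand) and Slc16a3 at chr11:120948817-120949116 (plus strand). Sequences run 5′ to 3′ on the gene's strand, and capitals mark every match to either core on either strand.
Ankrd37: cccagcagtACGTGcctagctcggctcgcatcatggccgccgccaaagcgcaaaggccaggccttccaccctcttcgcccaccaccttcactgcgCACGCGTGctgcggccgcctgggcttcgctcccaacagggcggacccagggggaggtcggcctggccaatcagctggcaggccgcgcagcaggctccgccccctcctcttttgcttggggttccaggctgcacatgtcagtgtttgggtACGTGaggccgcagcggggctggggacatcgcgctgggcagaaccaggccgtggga
Bnip3: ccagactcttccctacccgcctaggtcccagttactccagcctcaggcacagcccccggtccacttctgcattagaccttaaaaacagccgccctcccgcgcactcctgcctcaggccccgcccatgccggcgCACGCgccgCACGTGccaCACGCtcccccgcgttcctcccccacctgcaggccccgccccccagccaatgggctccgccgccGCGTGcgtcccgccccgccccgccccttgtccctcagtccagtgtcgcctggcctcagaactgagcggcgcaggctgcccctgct
Pdk1: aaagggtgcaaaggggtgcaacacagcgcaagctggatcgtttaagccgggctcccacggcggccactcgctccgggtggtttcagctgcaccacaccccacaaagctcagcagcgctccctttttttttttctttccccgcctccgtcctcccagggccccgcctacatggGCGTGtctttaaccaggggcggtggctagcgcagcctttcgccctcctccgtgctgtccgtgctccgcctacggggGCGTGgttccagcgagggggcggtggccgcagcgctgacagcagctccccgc
Slc16a3: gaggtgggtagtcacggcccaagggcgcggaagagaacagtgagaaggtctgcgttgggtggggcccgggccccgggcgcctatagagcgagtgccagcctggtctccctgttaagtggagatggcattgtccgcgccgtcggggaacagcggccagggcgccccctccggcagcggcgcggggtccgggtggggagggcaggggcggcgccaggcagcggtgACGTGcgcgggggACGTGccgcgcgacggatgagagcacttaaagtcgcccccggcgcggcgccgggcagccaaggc

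Other genes of the same pathways came from 8 lists with 135 genes, 132 of them with a probe. In B16-D 12 of 101 tested were higher than in B16-M and 1 lower, beside 7.83% of all genes, with a median of 0.11 against 0.02 over all genes, 0.07 with the slide as a block, and 0.08 and 0.01 within slides 1 and 3. They were 1 of 17 other glycolysis and gluconeogenesis genes (Ldhd), 1 of 10 other transporters (Slc2a4), 0 of 9 of the pyruvate dehydrogenase complex, 1 of 14 other glycogen genes (Stbd1), 0 of 7 other pentose phosphate genes, 2 of 9 other oxygen sensing genes (Epas1 higher, Hif3a lower), 7 of 26 other hypoxia targets and 1 of 10 genes of the glucose response and Myc (Myc). In B16-D-733 it was 11 higher and 3 lower of 101 (beside 11.0% of all genes), in B16-D-735 9 and 4 (beside 9.40%), and in B16-D-739 8 and 3 (beside 7.37%). Other hypoxia targets gave 4 higher and 1 lower in B16-D-733, 1 and 1 in B16-D-735, and 1 and 2 in B16-D-739. Against B16-D the totals were 2 higher and 1 lower in B16-D-733 (beside 0.969%), 6 and 11 in B16-D-735 (beside 14.1%), and 2 and 2 in B16-D-739 (beside 0.630%). In J365-p20 against M0-p20 the total was 0 higher and 1 lower of 97 (beside 1.94%), and in the difference between the models 2 and 0 of 92 (beside 2.77%). In B16-M against M0-p20 it was 27 higher and 58 lower of 108, beside 66.3% of all genes, with 6 and 19 of 29 among other hypoxia targets.

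Ak4, a mitochondrial adenylate kinase and hypoxia target, read -1.82, -2.04 and -1.71 in B16-M, 1.15, 1.22 and 1.11 in B16-D, 0.74, 0.56, 0.68 and 0.57 in B16-D-733, -1.15, -1.50 and -1.32 in B16-D-735 and 0.65, -0.10 and -0.03 in B16-D-739. The B16-D arrays are high and close together, and B16-D-735 lies nearest to B16-M. It rose in B16-D by 3.02 (SE 0.17, adjusted p 1.8e-07), 8.09-fold, with 2.90 and 2.92 within slides 1 and 3. In B16-D-733 and B16-D-739 it rose by 2.49 (SE 0.16, adjusted p 2.51e-07) and 2.03 (SE 0.17, adjusted p 4.96e-06). In B16-D-735 it was lower than in B16-D by -2.48 (SE 0.17, adjusted p 8.52e-07). Ldhd, a mitochondrial D-lactate dehydrogenase, read -4.14, -4.19 and -4.48 in B16-M, -1.26, -2.14 and -2.10 in B16-D, 0.02, -0.48, -0.73 and -0.53 in B16-D-733, 1.04, 1.14 and 1.24 in B16-D-735 and 0.07, -0.31 and -0.45 in B16-D-739. No dormant array used overlaps B16-M. It rose in B16-D by 2.44 (SE 0.24, adjusted p 3.31e-05), in B16-D-733 by 3.84 (SE 0.22, adjusted p 8.6e-08), in B16-D-735 by 5.41 (SE 0.24, adjusted p 1.17e-08) and in B16-D-739 by 4.04 (SE 0.24, adjusted p 1.53e-07). The B16-M values of Ldhd lie near the lowest signal well above background there, about -4.90, so the sizes of these rises are less certain. Slc2a4, the insulin-regulated glucose carrier, read -3.39, -4.16 and -3.18 in B16-M, -1.35, -0.61 and -0.50 in B16-D, 0.82, 0.47, 0.47 and 0.68 in B16-D-733, -0.22, -0.61 and -0.72 in B16-D-735 and 0.23, 0.10 and 0.34 in B16-D-739. Again no dormant array used overlaps B16-M. It rose in B16-D by 2.76 (SE 0.26, adjusted p 2.42e-05), in B16-D-733 by 4.19 (SE 0.24, adjusted p 8.6e-08), in B16-D-735 by 3.06 (SE 0.26, adjusted p 4.43e-06) and in B16-D-739 by 3.80 (SE 0.26, adjusted p 6.68e-07). Epas1, which encodes HIF2A, read -1.71, -1.58 and -1.35 in B16-M, -1.11, -0.07 and -0.35 in B16-D, 0.18, 0.26, 0.10 and 0.32 in B16-D-733, -0.11, 0.00 and -0.01 in B16-D-735 and 0.33, 0.66 and 0.75 in B16-D-739. Every dormant array used lies above every B16-M array, with rises of 1.04 (SE 0.21, adjusted p 0.00933), 1.76 (SE 0.20, adjusted p 5.3e-05), 1.51 (SE 0.21, adjusted p 0.000369) and 2.13 (SE 0.21, adjusted p 2.41e-05). With the slide as a block all of these stayed past the threshold.

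In the leukemia lines Slc2a4 was well above background on 3 of 4 M0-p20 arrays and on no J365-p20 array, so it entered the test only through the line where it is high, and the size of the difference is not known. The difference between the models was past the threshold for Ak4, 3.25 (SE 0.42, adjusted p 7.11e-05), and for Slc2a4, whose size is not known and whose p-value is not given for the same reason. Between the parental lines Ak4 was lower in B16-M by -6.44 (SE 0.29, adjusted p 1.23e-13). P4ha2 is at least 41.8-fold and Epas1 at least 8.68-fold higher in B16-M, with neither well above background in M0-p20. Car12 is at least 84.7-fold higher in M0-p20 and is not well above background in B16-M.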

How the data were processed

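RNA of 24 samples was read on 3 slides of 8 arrays each (Agilent, mouse, 1 colour). Per the file headers, the deposited intensity of each spot was made by the authors with Agilent Feature Extraction 10.7.3.1, which subtracts background and removes spatial trends, and no normalization between arrays was applied. The series table holds the same intensity values as the array files. From these, log2 signals were taken relative to each array's 75th percentile, outlier spots were left out, the spots of a probe were averaged, and each gene was given its brightest probe. RefSeq accessions in the gene annotation of build GRCm38.p6 matched 32994 of 56605 probes to 22911 genes. B16-D replicate 2 was left out.

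Genes with at least 3 arrays well above background were tested with limma 3.58.1 (R 4.3.3, with version 1.17.8 of data.table), two-sided, with Benjamini-Hochberg adjustment and a threshold of 0.05. The fits held 16 melanoma arrays, 7 leukemia arrays, or all 23 where melanoma and leukemia lines were compared. The test was run on simulated arrays with independent noise for each gene and array, and without slide or replicate structure. That check cannot speak for spread that arrays share. Tables and figures used Python 3.11.15, numpy 2.4.6, pandas 2.3.3 and matplotlib 3.10.9.

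The members and the lists of other genes were chosen with earlier results of these data known. Every member past the threshold is named, and where over 12 are, those with the largest change have full values. Others are named where the log2 change is at least 1 without overlap, where they are the brightest of their role, or as isoform partners of a named member. Pygb in the melanoma lines, the members listed for M0-p20 and J365-p20 replicate 0, and Ak4, Ldhd, Slc2a4 and Epas1 in every line were described after their values were seen.

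Whether the number in the title pairs arrays was checked by correlating deviations from the line means across genes. The correlation was 0.49 to 0.87 over 4 pairs of B16-D-733 and B16-M. There B16-D-733 replicates 1 and 1b, which share a sample name, both pair with B16-M replicate 1, at 0.55 and 0.53. Of the 4 pairs, 1 is on 1 slide. For B16-D-739 and B16-M it was 0.70 to 0.88 over 3 pairs, each on 1 slide, so number and slide cannot be told apart there. Arrays of 1 slide with different numbers could correlate as much, as B16-D-735 replicate 1 and B16-M replicate 2 did at 0.88. The numbers were read as pairing both lines with B16-M, which for B16-D-739 may be the slide. For the others at least 1 pair was under 0.1.

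Alternatives were B16-D replicate 2 put back, quantile normalization, normexp background correction with an offset of 50, 2 other filters on dim probes, 2 other choices of probe, the slide or the replicate number as a block, only the lines compared in the fit, a trend in the variance prior, and each array left out. None took up the date that stands in some titles of B16-D and B16-D-733. The files lack the mean signal planned for normexp, so it ran on median signals, an alternative chosen after seeing the data, as was leaving out both leukemia arrays with number 0.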

Additional observations from a re-analysis of the deposited data

Results flagged for a closer look

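In lines with 4 arrays, an array was looked at more closely where it lay far from the other 3 relative to their range, which chance does about 1 time in 20. That held for 0 of 41 members in B16-D, 5 of 41 in B16-D-733 and 8 of 38 in M0-p20, and for 5.79%, 9.26% and 7.04% of all genes well above background on the 4 arrays. In M0-p20 all 8 were low on replicate 0: Hk2 at 2.78, Gpi1 at 7.21, Pfkp at 3.78, Pgk1 at 8.47, Slc2a1 at 4.17, Pdk1 at 1.90, Egln1 at 4.88 and Ndrg1 at 4.97. The nearest other M0-p20 array was at 3.87 for Hk2, 8.35 for Gpi1, 5.23 for Pfkp, 9.01 for Pgk1, 5.89 for Slc2a1, 3.58 for Pdk1, 6.47 for Egln1 and 7.43 for Ndrg1. The cause was not tested.

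In B16-D-733 the arrays differed from gene to gene. Aldoc was low on replicate 0 (1.91, nearest 2.56), Eno1 low on replicate 2 (7.14, nearest 7.30) and Adm low on replicate 1 (-1.49, nearest -1.28). Pdk3 was high on replicate 1 (0.10, nearest -0.13) and Pfkfb4 high on replicate 2 (-0.88, nearest -1.22).

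The change of B16-D from B16-M differed from that of J365-p20 from M0-p20, by a test of the difference, for Hk1 (1.35) and Slc16a3 (2.13). The brain-derived lines were not in this test, and Slc16a3 in B16-D-735 overlaps B16-M. The Slc16a3 call was lost under no alternative. The Hk1 call was lost with 9 of 13 arrays, each left out alone, and under 4 of 12 other alternatives. With the mean over its probes, Hk1 differed by 1.09 (limma adjusted p 0.103). Outside the comparisons, 90.3% of the spots of B16-D replicate 2 were well above background, and its median signal was 155 against 18.6 to 38.5 on the other arrays. It lay below all 3 B16-D arrays used for 34 of 41 members and above them for 1, against 54.0% and 16.9% of all genes, with a median difference from their mean of -0.52 against -0.21. Leaving it out therefore made the members higher in B16-D: their median change from B16-M was 0.34 without it and 0.23 with it, and 4 and 3 members were past the threshold. Slc16a3 read 1.24 on it, against 2.07, 2.60 and 1.44, and Pdk1 read 0.03, against 0.42, 0.92 and 0.35.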

How the results depend on the processing

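Each count of members past the threshold was recomputed under alternatives, 181 values over 10 comparisons: 134 stayed within 1.5 times the count reported and 47 did not. Of 1360 recomputed values of 77 named fold changes, 1187 kept their direction and their side of the threshold, 148 lost the threshold, 24 gained it and 1 reversed: Ldha in B16-M against M0-p20, 0.12 under quantile normalization. Of the 77, 38 were past the threshold under every alternative that tested them; Pygl in B16-M against M0-p20 was not tested under all.

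In B16-D against B16-M the count of 4 was 7 with the slide as a block, 14 with the replicate block and 0 with only the lines compared in the fit, and 3 to 7 with an array left out. In B16-D-733 against B16-M the count of 6 was 9 with the slide or the replicate as a block and 1 to 6 with an array left out. In B16-D-735 against B16-M the count of 8 was 10 with the slide as a block, 12 with the replicate block, 5 with B16-D replicate 2, 4 with only the lines compared, and 5 to 8 with an array left out. In B16-D-739 against B16-M the count of 5 was 3 with B16-D replicate 2, 3 without a filter on dim probes, 9 with the replicate block, 3 with only the lines compared, and 2 to 5 with an array left out.

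In B16-D-733 against B16-D the count of 0 was 1 with the replicate block and 0 to 1 with an array left out. In B16-D-735 against B16-D the count of 7 was 17 with the replicate block, 3 with only the lines compared, and 3 to 11 with an array left out. In B16-D-739 against B16-D the count of 1 was 2 with normexp, 2 with the filter on every array of a line, 0 with only the lines compared, and 0 to 2 with an array left out.

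In J365-p20 against M0-p20 the count of 0 was 1 with the mean over probes, the slide as a block, the replicate block, a trend in the variance prior, or both arrays with number 0 left out, and 0 to 1 with an array left out, the 1 being Pygl each time, which entered the test only through M0-p20. In the difference between the models the count of 2 was 1 with B16-D replicate 2, the mean over probes, the replicate block or only the lines compared, and 1 to 3 with an array left out. In B16-M against M0-p20 the count of 37 ranged from 32 to 39. With only the lines compared the fit has fewer arrays. The other causes were not tested.

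For lines whose numbers do not pair arrays, the deviations of same-numbered arrays correlated at -0.64 to 0.76 across genes. For B16-D-733 and B16-D-739 against B16-M, read as paired, the replicate block changed no call of a member besides those given with these lines. Quantile normalization and normexp moved the median of all genes by no more than 0.1. Normexp on mean signals was not run. Signal over background limits Pygl, Egln3, Ldhb, Eno2 and Adm, which some lines do not show.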

Other observations

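Markers of other cell types were read as a check on what the 23 arrays used hold, as the number of genes well above background and their summed signal relative to the array's 75th percentile. Of 10 macrophage and granulocyte genes, 3 to 5 were above background on melanoma arrays (sum 1.98 to 6.28) and 6 to 7 on leukemia arrays (5.34 to 9.85). Of 7 lymphocyte genes it was 2 to 4 (1.38 to 3.84) and 3 to 4 (2.47 to 4.89). Of 7 fibroblast genes it was 1 to 3 (0.29 to 1.52) and 0 to 1 (0.0724 to 0.125). Of 6 endothelial genes it was 0 to 1 (0.0816 to 0.125) and 1 to 2 (0.365 to 0.491). Of 5 red blood cell genes it was 1 to 2 (0.124 to 0.857) and 2 to 3 (3.17 to 37.2). A list of brain genes was read as well and is not given here. The fibroblast sum was 1.10 to 1.52 on the B16-D-735 arrays and 0.290 to 0.773 on the other melanoma arrays used. Dcn and Col1a1 were well above background on 3 of 3 B16-D-735 arrays, against 0 and 1 of 3 in B16-M. Pdgfra went the other way, with 0 of 3 in B16-D-735 and 3 of 3 in B16-M. The part of the genes of all these lists in the members' results was not tested.

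Replicates of a line correlated at 0.970 to 0.998 over 10434 genes, and no pair of arrays was identical. Limits are these. Arrays of a line number 3 or 4, and the labels do not say what a replicate is. Each dormant line is 1 line, so a difference between lines cannot be told apart from a difference between dormancy and its absence. RNA was measured, and neither enzyme activity, glucose use, lactate nor oxygen was. The melanoma cells had grown in culture before RNA was taken, the labels do not describe the growth of the leukemia cells, which the study's text counts among cell models amplified in vitro, and a state in the animal was not measured. Array spots read part of a transcript, and the probes of several members disagree with each other in at least 1 comparison, Hk1, Pdk1, Vegfa, Eno1, Ldha, Aldoc and Gapdh among them.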
